A study of Mus musculus with 9 samples.

Results

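The polyamine synthesis and turnover genes are 10 genes, taken by symbol from a table of 21352 genes, and all 10 were listed and measured. They were read in HT-22 cells, a line of immortalized mouse hippocampal cells labelled as neuronal and wild type, in 9 libraries. The 3 control libraries carry no treatment label. The 3 HTL libraries came from cells kept with 2 mM homocysteine thiolactone (HTL, the reactive thioester that homocysteine forms with itself) for 24 hours. The 3 betaine plus HTL libraries came from cells that first received 10 mM betaine, a methyl donor and osmolyte, for 4 hours and then the same HTL dose and time. Cells with betaine and no HTL were not analysed here, so what betaine does without HTL cannot be told apart from what it does with it.

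Polyamines are small cations that bind nucleic acids and are needed for growth and translation. Ornithine decarboxylase (Odc1) makes putrescine. S-adenosylmethionine decarboxylase (Amd1) turns S-adenosylmethionine, the cell's methyl donor, into the aminopropyl donor that spermidine synthase (Srm) and spermine synthase (Sms) use. Spermidine/spermine acetyltransferase (Sat1) marks polyamines for export or for oxidation by Paox, and spermine oxidase (Smox) turns spermine back into spermidine with release of hydrogen peroxide. Antizymes (Oaz1, Oaz2) bind ornithine decarboxylase and send it to the proteasome, and the antizyme inhibitor (Azin1), a relative of the decarboxylase without its activity, captures antizyme. Much of this control acts on translation and on protein stability, which transcript levels do not show.

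The antizymes carry a regulatory site in their own coding sequence, shown here because both antizyme transcripts are described below and their protein output depends on this site as well as on transcript level. A ribosome has to shift its reading frame forward at a stop codon to make full-length antizyme, and polyamines are known to favour the shift. The GENCODE M21 transcripts (GRCm38) of Oaz1, on chromosome 10, and Oaz2, on chromosome 9, hold the site as follows, with the last sense codon and the stop codon in capitals.
Oaz1: cggtggtgcTCCTGAtgtccctcaccc
Oaz2: ctgtggtgcTCCTGAtgcccctcaccc
The windows of 27 bases share 25 bases. In the Oaz1 transcript of 538 bases the frame entered by the shift runs for 151 codons, up to the transcript's end, without meeting a stop. Those 151 codons are therefore a minimum. In the Oaz2 transcript, which is annotated as non-coding, the frame runs for 106 codons. The 2 numbers do not compare the lengths of the antizymes.

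Promoters of 8 members were found in the RefSeq table of GRCm38.p6, from 250 bases before a gene's start to 50 after it, and Sms and Paox have 2 starts each. Srm and Azin1 had no promoter there and were not searched. They were searched on both strands for the E-box CACGTG, which MYC and other factors bind, for the antioxidant response core TGACNNNGC, and for TGATGNAA, the core of elements that ATF4 and C/EBP factors bind. These letters do not overlap in any member. The upstream start of Sms held 1 E-box, 196 bases before the start, where 7.15% of all 32851 promoters in the table hold an E-box. Odc1 held no E-box in its window, and bases outside the windows were not searched for any member. Smox held 1 antioxidant core 193 bases before its start, and Oaz1 held 1 at 13 bases before its start, against 12.4% of all promoters. No member held TGATGNAA, which 3.97% of promoters hold. The other start of Sms held no match and is not printed. The promoters of Sms (upstream start, chrX:157492238-157492537, minus strand) and Smox (chr2:131491612-131491911, plus strand) are printed because these genes had the largest changes among the members, with the matches in capitals.
Sms: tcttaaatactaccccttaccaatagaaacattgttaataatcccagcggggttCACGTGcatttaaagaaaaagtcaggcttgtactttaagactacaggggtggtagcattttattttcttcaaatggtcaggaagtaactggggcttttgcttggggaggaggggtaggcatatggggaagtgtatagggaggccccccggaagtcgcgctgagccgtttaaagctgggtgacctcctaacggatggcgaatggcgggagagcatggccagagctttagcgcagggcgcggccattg
Smox: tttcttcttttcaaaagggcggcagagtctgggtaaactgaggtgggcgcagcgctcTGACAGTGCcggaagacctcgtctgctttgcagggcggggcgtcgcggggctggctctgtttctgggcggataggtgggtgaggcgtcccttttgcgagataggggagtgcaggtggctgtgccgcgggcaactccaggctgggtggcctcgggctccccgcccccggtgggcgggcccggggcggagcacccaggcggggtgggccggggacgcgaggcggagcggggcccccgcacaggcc

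Values are FPKM, the authors' fragments scaled to gene length and library total, so a comparison of levels between genes rests on the lengths used. The lengths inferred from the values were 9176 bases for Azin1 and 2871 bases for Odc1. In control replicate 1 Azin1 had 21724 inferred reads and Odc1 had 20208, though Azin1 was lower in FPKM. The totals to which libraries had been scaled, inferred from the steps of low values, ran from 33305472 to 39464509 fragments. On the log2(FPKM + 1) scale, Pearson's r over all genes was 0.9990 to 0.9992 for pairs within a group and 0.9945 to 0.9979 for pairs from different groups. The neuronal label was checked against 10 neuronal markers, of which 7 were listed and Snap25, Nefl and Dcx were not. Of the 7, 2 had a mean of at least 0.5 FPKM (Tubb3 at 9.52 FPKM and Syn1 at 0.65 FPKM). For the others the highest library had 0.41 FPKM of Map2, 0.15 FPKM of Syp, 0.0021 FPKM of Rbfox3, 0.016 FPKM of Mapt and 0.019 FPKM of Gap43. Among 6 fibroblast and mesenchymal markers the filament gene Vim stood at 883 FPKM, Col1a1 at 121 FPKM and Lum at no more than 0.013 FPKM. The summed level of these 6 was 1235 to 1269 FPKM in control, 902 to 924 FPKM in HTL and 864 to 890 FPKM in betaine plus HTL libraries, and its part in the results was not tested. Vim, from 1102 to 785 FPKM, and Col1a1, from 139 to 118 FPKM, carry the lower sum in HTL cells, while Pdgfrb (6.78 to 9.42 FPKM), Dcn (0.31 to 0.47 FPKM) and Col1a2 (0.050 to 0.14 FPKM) were higher there. Of the astrocyte markers 4 of 6 were listed, of the microglial 5 of 6, of the oligodendrocyte 3 of 5 and of the endothelial 4 of 4. Among those listed, none, 1, 1 and 1 reached a mean of 0.5 FPKM. The sums of the astrocyte, microglial, oligodendrocyte and endothelial markers had maxima of 0.36, 9.20, 7.76 and 3.36 FPKM. Nearly all of each of the last 3 sums is 1 gene, and by group means in control, HTL and betaine plus HTL these were Tmem119 at 8.39, 8.40 and 5.51 FPKM, Cspg4 at 6.90, 5.66 and 7.59 FPKM, and Flt1 at 3.17, 2.74 and 2.28 FPKM. Their part in the results was not tested either.

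The members span a wide range of levels. By the mean over the 9 libraries Oaz1 was highest at 383 FPKM, followed by Odc1 at 183, Srm at 143, Sat1 at 70.9, Azin1 at 61.5, Oaz2 at 46.5, Amd1 at 38.6, Sms at 13.0, Smox at 6.23 and Paox at 0.76 FPKM. Neighbours in this order whose library ranges overlapped were Odc1 and Srm, Sat1 and Azin1, and Oaz2 and Amd1, while the other neighbours did not overlap. Sms, which makes spermine, thus stood below Srm, which makes its substrate, in every library, and Paox lay close to the lower limit of 0.5 FPKM for testing.

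**Figure D1:**
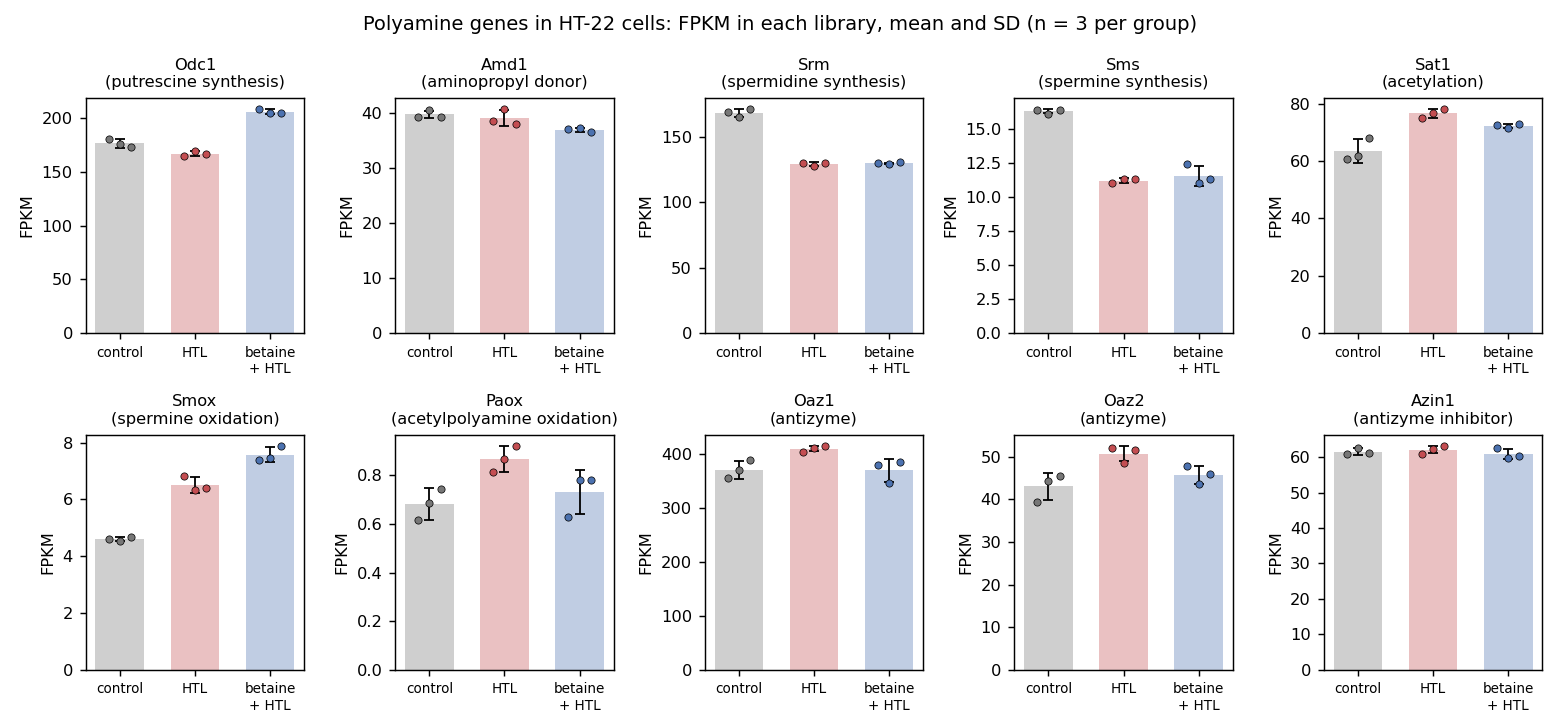
FPKM (y axis, from 0) of the 10 polyamine genes in control, HTL and betaine plus HTL libraries; points are libraries, bars are means and error bars SD (n = 3 per group). Srm and Sms are lower in both HTL-treated groups than in control, Smox is higher in both, and Odc1 is highest with betaine, at 204 to 208 FPKM.

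The synthases of spermidine and spermine fell in HTL cells and were as low in cells pretreated with betaine. Srm (chromosome 4, 148591513 to 148594619, GRCm38) stood at 169, 165 and 171 FPKM in control replicates 1 to 3, at 130.2, 128 and 130.4 FPKM in HTL and at 129.7, 129.6 and 130.4 FPKM in betaine plus HTL libraries. Every control library was above every treated one, and the treated groups overlapped. The mean went from 168 ± 2.87 to 129.4 ± 1.49 FPKM in HTL cells (SD, n = 3 each), a log2 fold change of -0.38 ± 0.02 (SE, limma adjusted p = 1.69e-07). Between betaine plus HTL (129.9 ± 0.45 FPKM) and HTL the log2 difference was 0.01, with a 95% interval of -0.04 to 0.05 (adjusted p = 0.882), and against control it was -0.37 (adjusted p = 1.19e-07). In bulk RNA a lower level in each cell and fewer cells with the transcript cannot be told apart.

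Sms (chromosome X, 157443851 to 157492287) followed the same order. It was read at 16.4, 16.1 and 16.4 FPKM in control, at 11.04, 11.3 and 11.3 FPKM in HTL, and at 12.4, 11.01 and 11.3 FPKM in betaine plus HTL libraries. Control again stood apart from both treated groups, which overlapped, and betaine plus HTL replicate 1 was the highest treated library. From control to HTL the mean fell from 16.3 ± 0.15 to 11.2 ± 0.16 FPKM (SD, n = 3 each), or 31.2%, with a log2 fold change of -0.50 ± 0.04 (SE, limma adjusted p = 1.84e-06), the 584th largest by size among 11012 genes. Betaine plus HTL, at 11.6 ± 0.73 FPKM, differed from HTL by 0.04 (95% interval -0.05 to 0.13, adjusted p = 0.471) and from control by -0.46 (adjusted p = 2.54e-06) on the same scale.

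Odc1, the first enzyme of the pathway (chromosome 12, 17544808 to 17551502), went the other way when betaine was given. Its levels were 181, 176 and 173 FPKM in control, 165, 169 and 167 FPKM in HTL, and 208, 204 and 205 FPKM in betaine plus HTL libraries. The groups did not overlap in any pairing, with HTL lowest and betaine plus HTL highest. From HTL to betaine plus HTL the mean rose from 166.9 ± 2.10 to 206 ± 2.19 FPKM (SD, n = 3 each), or 23.3%, a log2 fold change of 0.30 ± 0.02 (SE, limma adjusted p = 5.37e-06) that ranked 817th by size of 11012. Betaine plus HTL also stood above control (176 ± 3.97 FPKM) by 0.22 on the log2 scale (adjusted p = 1.11e-05). The fall from control to HTL was small, at -0.08 ± 0.02 (SE, limma adjusted p = 0.0141). It was lost under quantile normalization (adjusted p = 0.400), without control replicate 1 (0.0588) and without HTL replicate 1 (0.0534), with adjusted p from 0.000278 to 0.400 over all settings.

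Amd1, which supplies the aminopropyl donor, had the smallest range of group means among the synthesis genes, though between the treated groups Srm and Sms differed less. It was at 39.3, 40.5 and 39.3 FPKM in control, 38.6, 40.6 and 38.0 FPKM in HTL, and 37.0, 37.2 and 36.6 FPKM in betaine plus HTL libraries. Control and HTL overlapped, and betaine plus HTL lay below every other library. It fell from 39.7 ± 0.68 FPKM in control to 36.9 ± 0.35 FPKM in betaine plus HTL (log2 fold change -0.10 ± 0.03 SE, limma adjusted p = 0.0114), while HTL against control gave -0.02 (95% interval -0.09 to 0.04, adjusted p = 0.527) and betaine plus HTL against HTL gave -0.08 (-0.14 to -0.01, adjusted p = 0.0619). HTL against control passed under size factors (-0.11, adjusted p = 0.00915), and betaine plus HTL against HTL passed without HTL replicate 3 (adjusted p = 0.0487). Amd2, a near copy of Amd1 on chromosome 10, was listed at 0.80 to 1.22 FPKM, and reads that fit both copies could have been split or dropped.

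Of the catabolic enzymes, Smox changed most. It stood at 4.61, 4.52 and 4.66 FPKM in control, 6.83, 6.33 and 6.39 FPKM in HTL, and 7.38, 7.46 and 7.89 FPKM in betaine plus HTL libraries. No groups overlapped, with control lowest and betaine plus HTL highest. Against control the log2 fold change was 0.42 ± 0.04 in HTL cells (SE, limma adjusted p = 8.37e-06) and 0.62 ± 0.04 with betaine (adjusted p = 3.53e-07), the latter the 423rd largest of 11012. In means of 3 libraries this is 4.60 ± 0.07, 6.52 ± 0.27 and 7.58 ± 0.27 FPKM (SD), so betaine plus HTL was 1.65 times control. From HTL to betaine plus HTL it rose by 0.19 (adjusted p = 0.00527).

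Sat1 (chromosome X, 155213126 to 155216449) was read at 60.6, 61.8 and 68.3 FPKM in control, 75.2, 76.8 and 78.1 FPKM in HTL, and 72.8, 71.5 and 72.9 FPKM in betaine plus HTL libraries. The 3 groups were separate, with control lowest and HTL highest, and control replicate 3 was nearest to the treated libraries. It rose from 63.6 ± 4.11 to 76.7 ± 1.47 FPKM in HTL cells (SD, n = 3 each), with a log2 fold change of 0.27 ± 0.04 (SE, limma adjusted p = 0.000129), and stood 0.19 above control with betaine (adjusted p = 0.00143). Betaine plus HTL against HTL gave -0.08 (95% interval -0.17 to 0.00, adjusted p = 0.122). That difference passed without control replicate 3 (adjusted p = 0.0297) and with only the 6 libraries compared (0.0396).

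Paox had 222 to 329 inferred reads in a library, the fewest of the members. Its levels were 0.62, 0.69 and 0.74 FPKM in control, 0.81, 0.87 and 0.92 FPKM in HTL, and 0.63, 0.78 and 0.78 FPKM in betaine plus HTL libraries. HTL lay above both other groups, yet no comparison passed, with log2 differences of 0.15 for HTL against control (limma adjusted p = 0.0556), -0.11 for betaine plus HTL against HTL (0.193) and 0.04 for betaine plus HTL against control (0.587). HTL against control passed without betaine plus HTL replicate 1 (adjusted p = 0.0477) and with no intensity trend (0.0188). Paox overlaps Echs1, at up to 51.1 FPKM, on the opposite strand, and whether strand was used in counting is not given in the sources used here, so its level is uncertain.

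The antizyme transcripts were highest in HTL cells. Oaz1 (chromosome 10, 80826656 to 80829290) stood at 355, 369 and 388 FPKM in control, 404, 411 and 414 FPKM in HTL, and 379, 345 and 384 FPKM in betaine plus HTL libraries. HTL lay above both other groups, which overlapped. It rose from 371 ± 16.6 to 409.6 ± 5.03 FPKM in HTL cells (SD, n = 3 each; log2 fold change 0.15 ± 0.04 SE, limma adjusted p = 0.0105). It fell to 369 ± 21.0 FPKM with betaine (-0.15 ± 0.04 SE, adjusted p = 0.0165), and betaine plus HTL against control was -0.0050 (95% interval -0.10 to 0.09, adjusted p = 0.924). The rise was lost under size factors (log2 fold change 0.06, adjusted p = 0.243) and with no filter (0.0511). The fall was lost with no filter (adjusted p = 0.0749), without HTL replicate 3 (0.0541) and without betaine plus HTL replicate 2 (0.0503).

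Oaz2, the less abundant antizyme, was at 39.4, 44.4 and 45.4 FPKM in control, 52.0, 48.6 and 51.6 FPKM in HTL, and 47.8, 43.6 and 45.9 FPKM in betaine plus HTL libraries. HTL was again above both other groups, and those overlapped. It rose from 43.1 ± 3.19 to 50.7 ± 1.84 FPKM in HTL cells (SD, n = 3 each), with a log2 fold change of 0.23 ± 0.05 (SE, limma adjusted p = 0.00224). Betaine plus HTL, at 45.8 ± 2.10 FPKM, was lower than HTL by 0.15 ± 0.05 (SE), which passed only narrowly (limma adjusted p = 0.0460) and was lost in 10 of 18 alternative settings, among them 5 that each left out 1 library: control replicate 2 (0.0539), HTL replicate 1 (0.132), HTL replicate 3 (0.123), betaine plus HTL replicate 2 (0.151) and betaine plus HTL replicate 3 (0.0846). Against control betaine plus HTL differed by 0.09 (adjusted p = 0.158).

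Azin1, whose product opposes the antizymes, was at 60.7, 62.6 and 61.1 FPKM in control, 60.9, 62.4 and 63.0 FPKM in HTL, and 62.5, 59.7 and 60.2 FPKM in betaine plus HTL libraries. All 3 groups overlapped. The log2 differences were 0.01 for HTL against control (95% interval -0.04 to 0.07, limma adjusted p = 0.663), -0.03 for betaine plus HTL against HTL (-0.09 to 0.03, adjusted p = 0.400) and -0.02 for betaine plus HTL against control (-0.08 to 0.04, adjusted p = 0.611). Under size factors HTL against control turned to -0.07 and passed (adjusted p = 0.0417), as did betaine plus HTL against control (-0.07, adjusted p = 0.0381).

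**Figure D2:**
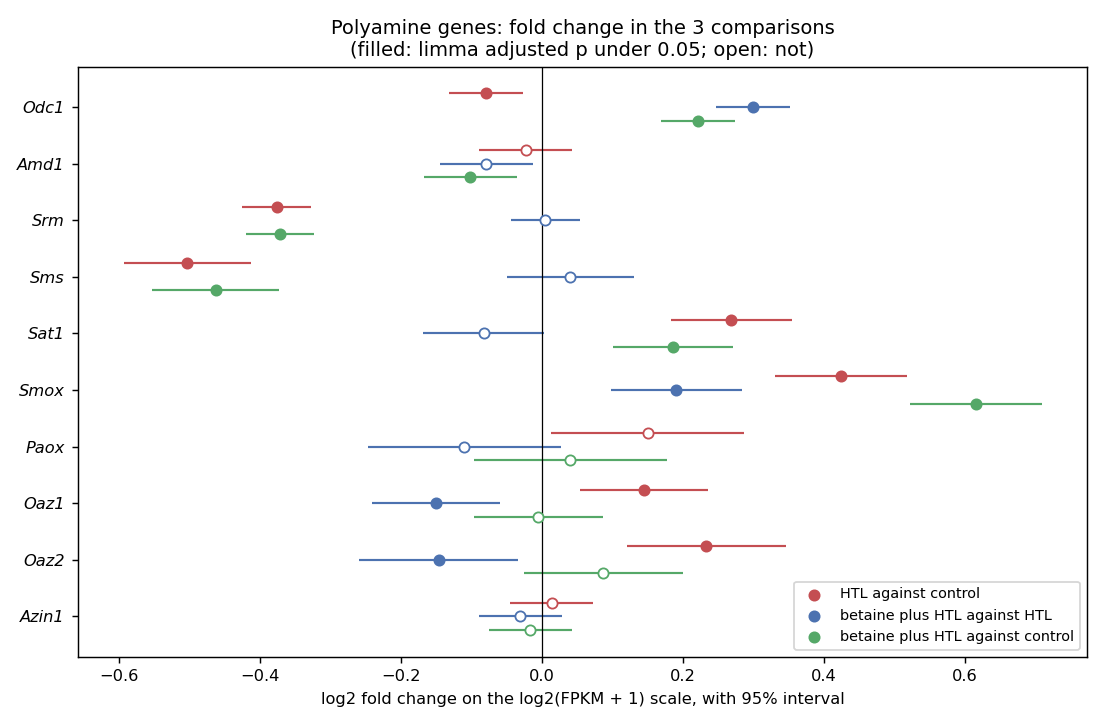
Log2 fold change (x axis, log2(FPKM + 1) scale, with 95% intervals) of each polyamine gene (y axis) in the 3 comparisons; filled points passed limma at an adjusted p under 0.05 and open points did not. Srm and Sms lie near -0.4 to -0.5 against control in both treated groups and near 0 between them, while Odc1 and Smox lie above 0 with betaine.

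Read as a group on the deposited scaling, the members were called about as often as genes in general. In HTL against control 4 of 10 rose (Sat1, Smox, Oaz1, Oaz2) and 3 fell (Odc1, Srm, Sms), where 39.8% of 11012 genes tested rose and 20.4% fell. In betaine plus HTL against HTL 2 rose (Odc1, Smox) and 2 fell (Oaz1, Oaz2), where 14.5% of genes rose and 20.6% fell. In betaine plus HTL against control 3 rose (Odc1, Sat1, Smox) and 3 fell (Amd1, Srm, Sms), where 37.7% rose and 25.7% fell. The median log2 change of the members was 0.08, -0.05 and 0.02 in these comparisons, against 0.07, -0.02 and 0.04 over all genes tested, and the median size was 0.19, 0.10 and 0.14 against 0.16, 0.09 and 0.17. Under size factors 3 members rose and 5 fell in HTL against control, where 26.8% of all genes rose and 30.9% fell. In betaine plus HTL against control 3 rose and 4 fell, where 30.3% rose and 32.6% fell. Under quantile normalization these counts were 4 and 2 (29.4% and 27.0% of all genes) and 3 and 3 (32.1% and 29.2%). In betaine plus HTL against HTL 2 rose and 1 fell under both scalings. Of all genes 18.6% rose and 15.1% fell there under size factors, and 18.2% and 16.9% under quantile normalization. All 10 members passed the filter on low values. The comparisons share groups, so a library that is high or low enters more than 1 of them.

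The balance of rises and falls over all genes depends on the scaling. Rises made up 66.1% of calls in HTL against control as deposited, against 46.5% under size factors and 52.2% under quantile normalization. In betaine plus HTL against HTL the share was 41.4%, 55.3% and 51.8%, and in betaine plus HTL against control 59.5%, 48.1% and 52.4%. Neither scaling moved the median of all genes by more than 0.1 on the log2 scale. The calls of Srm, Sms, Sat1 and Smox in HTL against control kept their direction and passed under both scalings.

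A ratio of 2 genes within a library is the same under any single factor that scales the whole library, size factors included, but not under quantile normalization, which reshapes each library's distribution. The ratio of Odc1 to Oaz1 FPKM, the enzyme's transcript over that of its main antizyme, was 0.51, 0.48 and 0.45 in control, 0.41, 0.41 and 0.40 in HTL, and 0.55, 0.59 and 0.53 in betaine plus HTL libraries. No groups overlapped, and betaine plus HTL was 1.37 times HTL by the group means. In HTL against control and in betaine plus HTL against HTL, Odc1 and Oaz1 were each separate in opposite directions. The separation of their ratio was therefore fixed in advance there, and its test adds nothing to the single genes. The exact permutation test of 3 libraries against 3 gave p = 0.1 for each of the 3 comparisons, the smallest it can give.

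The ratio of Sat1 to Srm, acetylation over spermidine synthesis, was 0.36, 0.37 and 0.40 in control, 0.58, 0.60 and 0.60 in HTL, and 0.56, 0.55 and 0.56 in betaine plus HTL libraries. Groups were separate here too, with HTL 1.57 times control and betaine plus HTL 1.48 times control, at p = 0.1 in the exact permutation test for each pairing. Against control this was fixed in advance, as every treated library was above control in Sat1 and below it in Srm. Azin1 over Oaz1 was 0.166 ± 0.0075 in control, 0.152 ± 0.00073 in HTL and 0.165 ± 0.0079 in betaine plus HTL libraries (SD, n = 3 each). HTL lay below both other groups (exact permutation p = 0.1 each), while betaine plus HTL and control overlapped (p = 0.9). Under quantile normalization the log2 difference of Azin1 over Oaz1 went from -0.13 to -0.21 in HTL against control (exact permutation p = 0.1) and from -0.01 to -0.09 in betaine plus HTL against control (p = 0.3). In betaine plus HTL against HTL it stayed at 0.12 with an exact permutation p = 0.2, while the Odc1/Oaz1 and Sat1/Srm ratios kept direction and p = 0.1. Over the 9 tests of ratios no adjustment can bring p under 0.1.

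**Figure D3:**
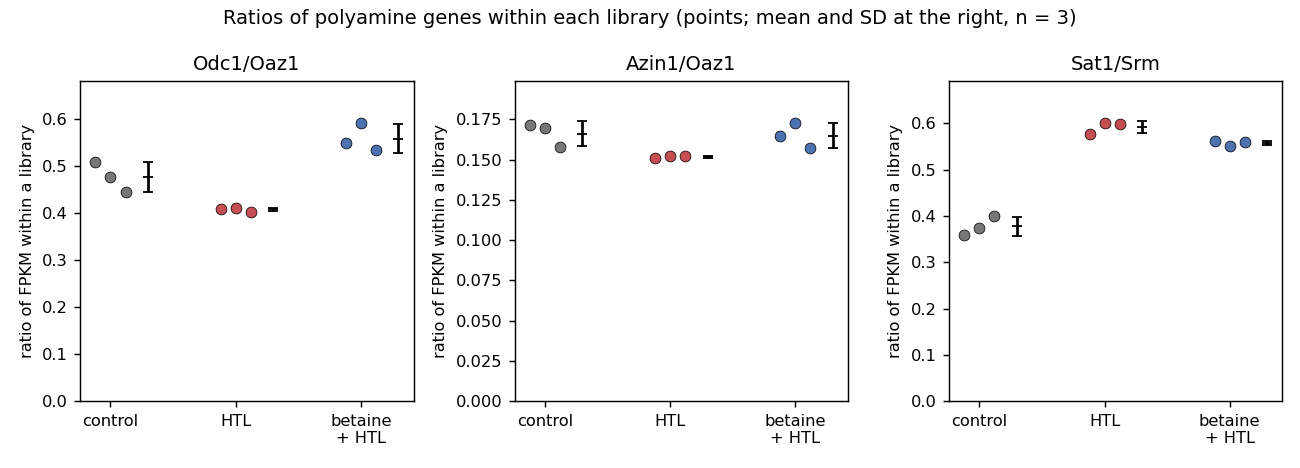
Ratio of FPKM of 2 polyamine genes within a library (y axis, from 0) for Odc1/Oaz1, Azin1/Oaz1 and Sat1/Srm; points are libraries, with the mean and SD of each group (n = 3) at their right. Odc1/Oaz1 is lowest in HTL and highest with betaine, and Sat1/Srm is higher in both treated groups than in control.

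The genes around the pathway were read in 7 lists, and their counts stand against the shares of all genes given above, which in HTL against control were 39.8% rising and 20.4% falling. Those shares became 26.8% and 30.9% under size factors and 29.4% and 27.0% under quantile normalization. In betaine plus HTL against HTL 14.5% rose and 20.6% fell, with 18.6% and 15.1% under size factors and 18.2% and 16.9% under quantile normalization. In betaine plus HTL against control 37.7% rose and 25.7% fell, with 30.3% and 32.6% under size factors and 32.1% and 29.2% under quantile normalization. The precursors of the pathway were read from a list of S-adenosylmethionine (SAM) supply and of salvage of methylthioadenosine, the by-product of Srm and Sms. Of 10 tested genes 5 fell in HTL cells and none rose, as deposited and under both other scalings, where 20.4% of all genes fell and 39.8% rose. The median log2 change of the list was -0.13, against 0.07 over all genes. Mat2a, which makes SAM, was at 88.4, 72.2 and 64.2 FPKM in control, HTL and betaine plus HTL by group means, and Mtap, which cleaves methylthioadenosine, at 116, 93.5 and 83.5 FPKM. Both fell in every comparison, by 0.29 and 0.31 from control to HTL on the log2 scale (limma adjusted p = 4.06e-06 and 7.04e-06) and by 0.17 and 0.16 from HTL to betaine plus HTL (0.000686 and 0.00192). Enoph1, a later salvage enzyme, fell from 10.5 to 7.31 FPKM in HTL cells, and Got1, a transaminase, from 72.6 to 59.4 FPKM. In betaine plus HTL against HTL 3 of the 10 fell, the other being the transaminase Kyat3 from 4.38 to 3.36 FPKM, where 20.6% of all genes fell, and against control 6 fell, where 25.7% did. None rose in either as deposited, though under both other scalings Got1 passed as higher in betaine plus HTL than in HTL (limma adjusted p = 0.0270 and 0.0184).

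Among 6 tested genes of ornithine and arginine supply, 2 rose and 2 fell in HTL cells, near the shares of all genes (39.8% and 20.4%), and 1 rose and 2 fell under both other scalings. Slc7a2, a cationic amino acid transporter, rose in each comparison, with group means of 36.4, 48.5 and 61.1 FPKM in control, HTL and betaine plus HTL, and was 0.73 above control on the log2 scale with betaine (limma adjusted p = 2.23e-09). Slc7a1, the related transporter, fell from 30.7 to 28.7 FPKM with HTL and rose to 34.5 FPKM with betaine. Ass1, argininosuccinate synthase, fell from 62.7 to 51.7 FPKM with HTL, and Asl, the next enzyme, fell from 18.9 in HTL to 15.6 FPKM with betaine. In betaine plus HTL against HTL 2 rose and 1 fell, where 14.5% of all genes rose and 20.6% fell. Against control 2 rose and 2 fell, where 37.7% rose and 25.7% fell. Both counts were the same under both other scalings.

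Of 7 tested transport genes 4 rose and 2 fell in HTL cells, against 39.8% and 20.4% of all genes, and 2 rose and 2 fell under both other scalings. Slc3a2, the heavy chain of amino acid transporters that has also been linked to polyamine export, rose from 39.8 to 53.7 FPKM and stood at 57.0 FPKM with betaine. Atp13a2, a lysosomal polyamine exporter, rose from 3.57 to 4.76 FPKM, and Gpc1, a glypican, rose from 26.3 FPKM in HTL to 35.8 FPKM with betaine. Slc7a5 fell from 142 to 125 FPKM with HTL and rose to 141 FPKM with betaine. With betaine 3 rose and 1 fell against HTL, where 14.5% of all genes rose and 20.6% fell. Against control 3 rose and 1 fell, where 37.7% rose and 25.7% fell. The latter counts became 3 and 2 under size factors and 4 and 1 under quantile normalization.

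Spermidine is the substrate for hypusine, a modified lysine made in the translation factor encoded by Eif5a. In HTL cells Eif5a fell from 755 to 700.3 FPKM, while Dhps and Dohh, the enzymes of the modification, rose from 54.8 to 58.7 and from 17.3 to 19.5 FPKM, so that 2 rose and 1 fell of 4. Under size factors neither Dhps nor Dohh passed, and under quantile normalization Dohh did not pass and Eif5a turned to 0.02 on the log2 scale (limma adjusted p = 0.521). Dhps alone rose with betaine against HTL, to 63.5 FPKM, and none fell as deposited. Under quantile normalization Eif5a fell in that comparison (-0.13 on the log2 scale, limma adjusted p = 0.000473). Against control Dhps rose and Eif5a fell, to 675 FPKM. Of all genes 39.8% rose and 20.4% fell in HTL against control. With betaine 14.5% rose and 20.6% fell against HTL, and 37.7% rose and 25.7% fell against control. Of 4 tested genes that handle aldehydes and peroxide, 1 rose and 1 fell in HTL cells (Aldh9a1 from 5.36 to 6.04 FPKM, Aldh7a1 from 35.7 to 30.8 FPKM). The rise of Aldh9a1 did not pass under either other scaling (adjusted p = 0.177 and 0.204). With betaine against HTL 2 rose and 1 fell, with Aldh2 from 67.8 to 83.6 FPKM, the catalase gene Cat from 40.2 to 45.9 FPKM and Aldh9a1 down to 5.05 FPKM. Against control 2 rose and 1 fell, and 2 rose and 2 fell under both other scalings. The counts of this list stand beside the same shares of all genes as those of the hypusine genes. Of the 3 tested family members Sat2, a relative of Sat1, rose from 1.46 to 2.25 FPKM in HTL cells and fell to 1.28 FPKM with betaine (limma adjusted p = 0.00242 and 0.00134), and Azin2 and Amd2 passed in no comparison.

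Transcription factors known to act on Odc1, Srm or Sat1 were read last. Of 8 tested, 4 rose and none fell in HTL cells, 4 rose and none fell with betaine against HTL, and 7 rose and 1 fell with betaine against control. Rises over all genes were 39.8%, 14.5% and 37.7% in these comparisons, and falls were 20.4%, 20.6% and 25.7%. In HTL against control the list gave 2 rises and 1 fall under size factors and 5 rises and 1 fall under quantile normalization. With betaine it gave 5 rises and no fall against HTL, and 5 rises and 1 fall against control, under both. Myc, a known activator of Odc1, was at 63.7 ± 2.73 FPKM in control, 65.6 ± 0.46 in HTL and 90.0 ± 3.79 FPKM in betaine plus HTL libraries (SD, n = 3 each). It did not pass in HTL against control (0.04, limma adjusted p = 0.321) and rose by 0.45 on the log2 scale from HTL to betaine plus HTL (adjusted p = 5.70e-06). The part of Myc in the levels of Odc1 or Srm was not tested. Mxi1, a MAX partner that opposes MYC, rose from 10.5 to 15.5 FPKM with HTL and to 17.9 FPKM with betaine. Nfe2l2 rose from 46.3 to 53.9 FPKM and Trp53 from 176 to 191 FPKM in HTL cells, the latter not passing under size factors (adjusted p = 0.329), and Atf4 rose from 519 to 598 FPKM with betaine against HTL. The 63 genes of these 7 lists gave 42 tested ones, of which 14 rose and 11 fell in HTL cells. With betaine 12 rose and 7 fell against HTL, and 15 rose and 12 fell against control. Over all genes tested the rises were 39.8%, 14.5% and 37.7% and the falls 20.4%, 20.6% and 25.7%. Under size factors the list counts became 6 and 13, 14 and 7, and 13 and 15. Of all genes 26.8% and 30.9%, 18.6% and 15.1%, and 30.3% and 32.6% then rose and fell. Under quantile normalization the list counts were 10 and 11, 14 and 8, and 14 and 13. The shares of all genes were then 29.4% and 27.0%, 18.2% and 16.9%, and 32.1% and 29.2%. The balance in HTL cells thus depends on the scaling.

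**Figure D4:**
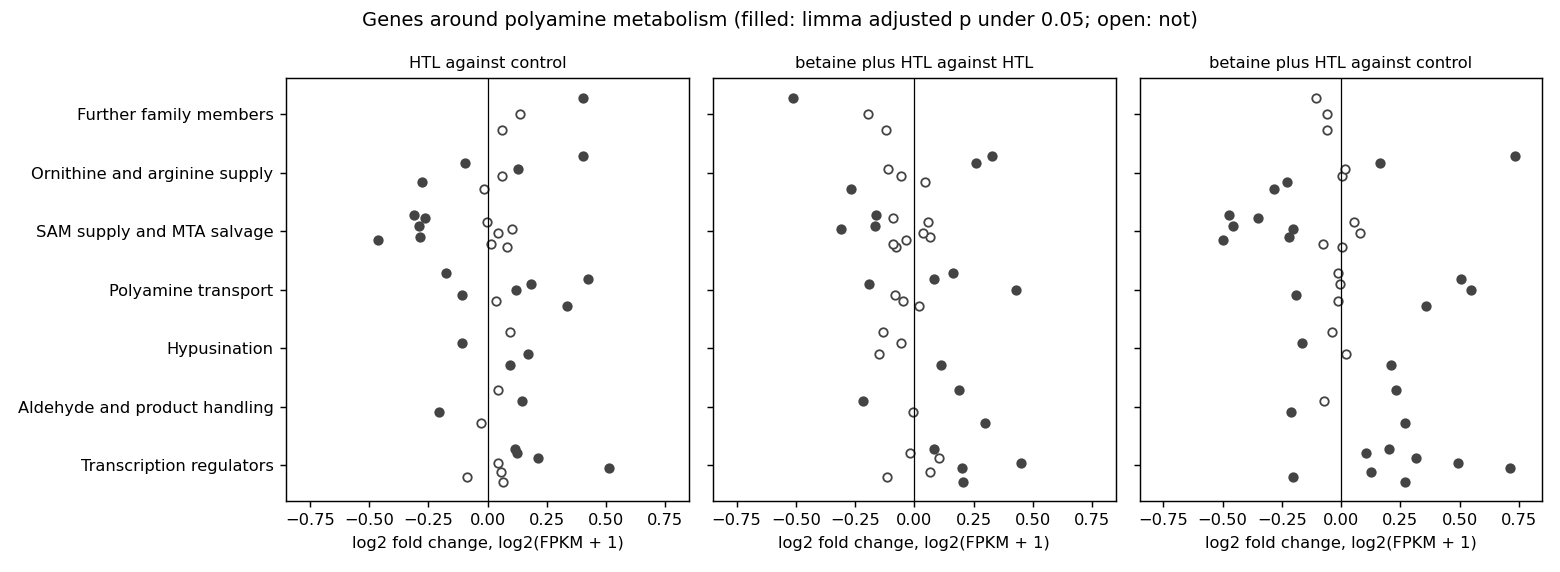
Log2 fold change (x axis, log2(FPKM + 1) scale) of the 42 tested genes around polyamine metabolism, by list (y axis), in the 3 comparisons (panels); filled points passed limma at an adjusted p under 0.05. All filled points of the SAM supply and salvage list lie below 0 in the 3 panels, with 5, 3 and 6 of them.

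Genes with the pattern most like a member were sought over the 9 libraries for the 3 members with the widest range of group means, among genes with at least 5 FPKM. Smox was followed most closely by Zbtb17 (Pearson r = 0.996), Cdc42bpb (0.995) and Ankrd13b (0.995). Sms was followed by Qdpr (0.995), Cacybp (0.991) and Hmga2 (0.991), and Srm by Eea1 (0.998), Anxa2 (0.997) and Npm3 (0.996). These values describe 9 libraries that fall into 3 groups, so they mostly record the order of the group means.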

How the data were processed

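RNA of HT-22 cells was sequenced in 9 libraries of 3 groups. The deposited table gives FPKM per gene, as the authors computed them, starting from reads; the submitters' processing notes name HISAT2, fastp, R 3.2.0, HTSeq and the mouse build mm10, without roles or options. Library totals and member reads were inferred from the steps of low FPKM values, taking the shortest gene length that gave whole reads in all libraries within 0.01 reads. The 11012 genes averaging 0.5 FPKM or more entered limma 3.58.1 (R 4.3.3) as log2(FPKM + 1), with 1 fit of 3 group means, an intensity trend, two-sided tests and Benjamini-Hochberg adjustment over all genes of a comparison, at a threshold of 0.05. Fold changes on this scale understate changes of low genes. Ratios were tested by exact permutation. The labels do not say whether the libraries of a group are separate cultures; the p-values reflect spread among libraries, which may be technical. The scripts were tested on simulated data.

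The members, lists and tests were chosen with earlier results of these data known. Named were all members, the 3 genes of each further list with the smallest p in a comparison, near copies, Myc, Mtap and Mat2a. Of the 3 genes most like a member, other members and provisional symbols were left out. Positions came from RefSeq (GRCm38.p6), matched by Entrez identifier. Alternatives were other pseudocounts, filters, scalings and fits, a replicate block and leaving out each library.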

Additional observations from a re-analysis of the deposited data

How the results depend on the processing

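Counts of members called stayed within 1.5 times in 52 of 54 alternatives. The exceptions were in betaine plus HTL against HTL, where 2 members passed instead of 4 with no filter and 2 without betaine plus HTL replicate 2, with 2 to 5 when leaving out each library in turn; in both exceptions the calls lost were those of Oaz1 and Oaz2. Total calls over the further lists stayed within 1.5 times in 54 of 54, but their split did not: in HTL against control 14 rises and 11 falls became 6 and 13 under size factors and 10 and 11 under quantile normalization. Over all genes 39.8% rises and 20.4% falls became 26.8% and 30.9%, and 29.4% and 27.0%. Of 537 alternatives for single members 503 kept direction and side of the threshold, 18 lost a call, 8 gained one and 8 turned direction. Turned values were, under quantile normalization, those of Paox (-0.021), Oaz1 (0.097) and Azin1 (0.011) in betaine plus HTL against control, and under size factors that of Azin1 in HTL against control (-0.072); the cause was not tested. Leaving out a library, Srm ran from -0.0045 to 0.010 and Sms from -0.0058 to 0.074 in betaine plus HTL against HTL, and Oaz1 from -0.036 to 0.043 in betaine plus HTL against control. The Azin1/Oaz1 ratio in betaine plus HTL against control was -0.086 on the log2 scale under quantile normalization and ran from -0.049 to 0.023 when leaving out a library, turning without control replicate 1 (0.010) or 2 (0.0040) and without betaine plus HTL replicate 3 (0.023). Replicate numbers did not pair libraries, as the deviations of same-numbered libraries correlated at -0.07 to 0.06. With a replicate block 8, 3 and 6 members passed in the 3 comparisons instead of 7, 4 and 6. Paox was gained in HTL against control (limma adjusted p = 0.0442) and Oaz2 lost in betaine plus HTL against HTL (0.0614). The shares of all genes passing with a block, with no filter or without a library are not given here, so these member counts have no such measure beside them. Counting error, averaged over the 3 libraries of a group, was 0.68% to 6.48% of a member's level, largest for Paox. The spread among replicates was below the counting error in some groups and above it in others. It was 0.35% against 1.27% for Srm in betaine plus HTL and 0.94% against 2.07% for Sms in control. For Oaz1 in control it was 4.47% against 0.82%, and for Sat1 in control 6.46% against 1.60%.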
